A study of Mus musculus with 6 samples.

Results

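The cytosolic ribosomal protein genes were taken from the deposited expression table by symbol. The rule kept Rpl or Rps followed by digits and at most one of the letters a, l and x, together with Rplp0, Rplp1, Rplp2 and Rpsa. Kinases of the Rps6k family and pseudogenes were left out. The rule found 81 of the 16423 genes, 31 for the small subunit and 50 for the large subunit. Of these, 78 had a mean of at least 1 FPKM (reads divided by gene length and library size) over the 6 libraries and were tested, 31 small and 47 large.

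The libraries came from the mouse line C3H10T1/2, mesenchymal stem cells able to form adipocytes. All cells were wild type by label apart from the knockdown, and all received the same adipogenic treatment. It consisted of 2 days with isobutylmethylxanthine, dexamethasone, insulin, triiodothyronine, indomethacin and rosiglitazone, then 2 days with triiodothyronine, insulin and rosiglitazone. On day 4 one group of 3 samples received a control siRNA (siNC) and the other group of 3 received siRNAs against Ybx1 (siYBX1), and RNA was taken 48 h later. How many siRNAs were used and their sequences are not given in the sources used here. The labels do not say whether replicates were separate cultures, so the spread behind each p-value is that among these libraries and may be technical. The product of Ybx1 is a nucleic acid-binding protein with a cold-shock domain.

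Each ribosome pairs a small subunit, which reads the mRNA, with a large subunit, which joins amino acids and threads the new chain through an exit tunnel. The ribosomal proteins are made in matched amounts, and their mRNAs are short, abundant and known for a 5′ terminal oligopyrimidine (TOP) tract at the transcription start, through which mTOR and LARP1 control their translation. In fat cells, as in other cells, they account for much of the capacity to make protein.

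The 6 library totals recovered from the FPKM steps lay between 31957411 and 35410308 reads. Ybx1 had 135, 134 and 130 FPKM in siNC replicates 1 to 3 and 59.3, 67.9 and 61.3 FPKM in siYBX1 replicates 1 to 3. The groups were well apart, and 47.3% of the control level was left (limma adjusted p = 3.98e-06). The adipocyte markers Adipoq, Fabp4 and Plin1 were at 584 to 617, 1481 to 1755 and 121 to 137 FPKM as group means, whereas Cebpa, the lowest of the 7 adipocyte markers, was at 0.35 and 0.45 FPKM. Of the 6 brown adipocyte markers in the table, 4 (Dio2, Ppargc1a, Elovl3 and Prdm16) had means under 1 FPKM, and Ucp1 was not analysed here. Of the same list, Cox8b was at 113 FPKM in siNC and 134 FPKM in siYBX1, and Cidea at 21.2 and 19.6 FPKM. The preadipocyte marker Ly6a was at 491 FPKM in siNC and 449 FPKM in siYBX1, Pdgfra at 22.9 and 22.1 FPKM. Cd34 was at 0.253 and 0.143 FPKM. The 3 preadipocyte markers in the table summed to 500 to 522 FPKM in siNC and 462 to 484 FPKM in siYBX1, and none was called. The leukocyte genes Ptprc, Adgre1 and Itgam and the endothelial genes Pecam1 and Kdr were at or below 0.0344 FPKM as group means. Of the same leukocyte list, Cd68 was at 16.0 FPKM in siNC and 9.13 FPKM in siYBX1 and Cd14 at 5.39 and 5.68 FPKM, and neither was called. The 5 leukocyte markers summed to 15.8 to 29.5 FPKM in siNC and 11.2 to 17.1 FPKM in siYBX1. The 5 smooth muscle and myofibroblast markers summed to 571 to 640 FPKM in siNC and 1985 to 2084 FPKM in siYBX1. Of these, Acta2, Tagln and Myl9 were called higher, while Cnn1 and Myh11 stayed at or below 0.134 FPKM as group means. In bulk RNA, fewer cells of a type and less RNA per cell cannot be told apart, and the part of these markers in the results below was not tested.

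A minority of ribosomal protein mRNAs of both subunits passed the test after Ybx1 knockdown, nearly all of them upward and by small amounts. A gene was called when limma, fitted to log2(FPKM + 1) over all 10341 tested genes, gave a Benjamini-Hochberg adjusted p below 0.05. Of the 78 tested members 14 (17.9%) were called higher, against 9.54% of all tested genes, and 1 was called lower, against 11.1% of all tested genes. The median log2 fold change was 0.17 for the small subunit, 0.16 for the large subunit and -0.01 for all tested genes. In the small subunit 6 of 31 were called higher, 1 lower, and log2 fold changes ranged from -0.37 to 0.42. In the large subunit 8 of 47 were called higher and none lower, with a range from 0.00 to 0.37, and no large-subunit member was called lower by voom on recovered reads either. The log2 fold change was above 0 for 27 of 31 small-subunit and 47 of 47 large-subunit genes, against 25 and 38 when libraries were rescaled to TPM and 23 and 36 after quantile normalization. The siYBX1 libraries all lay above the siNC libraries for 45 members (57.7%), against 19% of all tested genes, and all lay below for 1, against 21.9%. The share above in other short or abundant genes, higher than 19%, is given below. The count of 14 was 9 without siNC replicate 1, 4 without siNC replicate 3, 2 without siYBX1 replicate 1 and 3 without siYBX1 replicate 2, and 6 without both replicates numbered 1.

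**Figure D1:**
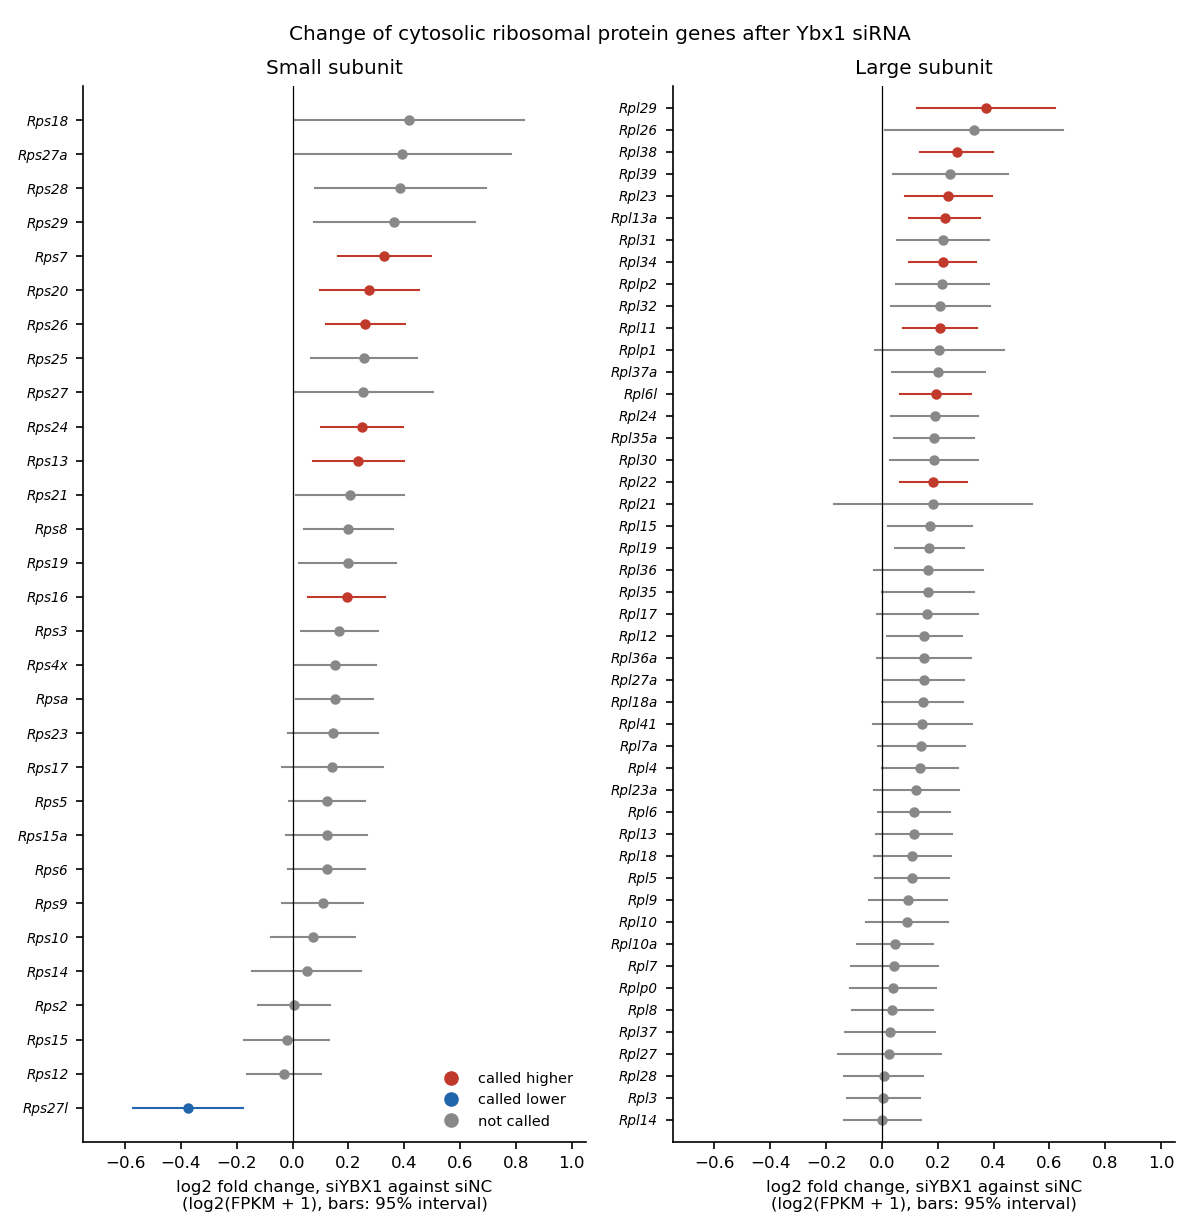
Log2 fold change (siYBX1 against siNC, log2(FPKM + 1) scale) of the tested genes reported for each subunit, with points for limma estimates, bars for 95% confidence intervals and colour for the call at adjusted p below 0.05. Most points lie between 0 and 0.4, and Rps27l at -0.37 stands apart on the left.

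The start of each transcript is shown for a few members, since a pyrimidine run there is the shared sequence feature of this gene family. The members chosen are Rps7, Rpl38, Rps26 and Rpl13a, called higher in siYBX1, the paralogs Rps27 and Rps27l, and Rps12 and Rpl14, whose levels differed little. Each line gives, 5′ to 3′ on the gene's strand, 45 bases before and the first 25 bases of the first exon, with capitals for runs of at least 8 bases made only of C and T. The sequences and coordinates are from RefSeq on GRCm38.p6, another build than the GRCm39 named in the submitters' processing notes.
Rps7, chr12:28635929-28635998, minus strand: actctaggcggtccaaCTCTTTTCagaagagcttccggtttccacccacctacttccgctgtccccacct
Rpl38, chr11:114668535-114668604, plus strand: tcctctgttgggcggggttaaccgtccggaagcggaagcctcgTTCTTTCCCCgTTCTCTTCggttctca
Rps26, chr10:128626482-128626551, minus strand: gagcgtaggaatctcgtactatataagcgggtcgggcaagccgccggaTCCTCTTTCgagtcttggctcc
Rpl13a, chr7:45128721-45128790, minus strand: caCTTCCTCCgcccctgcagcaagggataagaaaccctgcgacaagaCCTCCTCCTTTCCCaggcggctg
Rps27, chr3:90213624-90213693, minus strand: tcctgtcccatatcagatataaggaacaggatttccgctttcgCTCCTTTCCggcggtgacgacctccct
Rps27l, chr9:66946041-66946110, plus strand: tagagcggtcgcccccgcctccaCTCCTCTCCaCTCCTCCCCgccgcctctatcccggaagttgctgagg
Rps12, chr10:23787185-23787254, minus strand: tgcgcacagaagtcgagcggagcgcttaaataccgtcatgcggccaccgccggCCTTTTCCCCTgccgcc
Rpl14, chr9:120571472-120571541, plus strand: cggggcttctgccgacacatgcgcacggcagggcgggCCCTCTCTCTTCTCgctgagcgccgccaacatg

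Rpl38, Rps26, Rpl13a, Rps27, Rps12 and Rpl14 each carry a run at or just after the annotated start, whereas in Rps27l both runs lie before it and in Rps7 the run in this window lies well before it. Rps7 also has a longer run, of 13 bases, within 50 bases of its start, which ends downstream of the printed bases. Rps27l has a second annotated start, whose window holds no run of 8. Over all members with a promoter entry, 52 of 60 (86.7%) had such a run within 50 bases of a listed start, 18 of 23 in the small subunit and 34 of 37 in the large subunit. The share was 36.1% of the 8357 tested genes with a promoter entry and 39.3% of all 27025 genes with one. Members called higher had it in 9 of 11 cases (81.8%), and mitochondrial ribosomal protein genes in 24 of 69 (34.8%). Genes listed as other TOP mRNAs had it in 5 of 12 cases (41.7%), near the share of tested genes. The same run read on the opposite strand occurred in 14 of 60 members (23.3%) and in 38.9% of tested genes. The letters CCAAT, searched on both strands of the 300-base window, were in 19 of 60 members (31.7%) and in 43.8% of tested genes. A match is a description of the letters in these windows.

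In the small subunit, Rps7 had the largest called rise. RPS7 is a protein of the small subunit that also binds MDM2, and its gene is among those mutated in Diamond-Blackfan anaemia. Rps7 had 289, 311 and 300 FPKM in siNC replicates 1 to 3 and 423, 364 and 347 FPKM in siYBX1 replicates 1 to 3. Every siYBX1 library was above every siNC library, and siYBX1 replicate 1 was the highest. The log2 fold change was 0.33 (SE 0.08, limma adjusted p = 0.0129), and it passed the threshold under 15 of 16 alternative settings, the exception being the fit with no filter on low values (adjusted p = 0.0660).

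Rps26 encodes a protein at the mRNA exit channel of the small subunit. It had 784, 820 and 784 FPKM in siNC and 998, 923 and 940 FPKM in siYBX1. The groups did not overlap, and the siYBX1 libraries were close to each other. The estimate was 0.26 on the log2 scale (SE 0.06, adjusted p = 0.0174), and it was called under 11 of 16 alternatives. Rps24, another Diamond-Blackfan gene, had 399, 435 and 416 FPKM in siNC and 527, 493 and 466 FPKM in siYBX1, with no overlap (log2 fold change 0.25, adjusted p = 0.0236). Rps20 and Rps16, which encode proteins of the small-subunit head, rose by log2 fold changes of 0.27 and 0.19 (adjusted p = 0.0342 and 0.0499), and Rps13 by 0.24 (0.0466). These 3 calls were the least stable of the small subunit, being kept under 7, 6 and 4 of the 16 alternatives.

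Rps27l was the only member called lower, except that quantile normalization also called Rps15 lower. Its paralog Rps27 was not called. The proteins of the pair are near-identical zinc-finger subunits, and Rps27l is known as a p53 target gene. Rps27l had 29.0, 32.5 and 30.8 FPKM in siNC replicates 1 to 3 and 26.5, 24.4 and 20.01 FPKM in siYBX1 replicates 1 to 3. All siYBX1 libraries were below all siNC libraries, with siYBX1 replicate 3 the lowest. The mean fell from 30.8 ± 1.76 to 23.6 ± 3.30 FPKM (SD, n = 3), and the log2 fold change was -0.37 (SE 0.09, 95% interval -0.57 to -0.18, limma adjusted p = 0.0151). It passed under 15 of 16 alternatives, with log2 fold changes from -0.50 to -0.26, and missed the threshold with no filter on low values (adjusted p = 0.0834). The call rests on 2002 reads per library on average.

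Rps27 had 336, 376 and 348 FPKM in siNC and 514, 409 and 354 FPKM in siYBX1. The groups overlapped, since siYBX1 replicate 3 lay within the siNC range and siYBX1 replicate 1 was far above it (log2 fold change 0.25, adjusted p = 0.132). Within each library, Rps27l was 8.63%, 8.64% and 8.85% of Rps27 in siNC and 5.15%, 5.98% and 5.65% in siYBX1. This ratio did not overlap between groups, at 8.70% ± 0.122 and 5.59% ± 0.414 (SD, n = 3, exact two-sided permutation p = 0.1, the smallest that 3 against 3 libraries allow). None of the 100-base stretches of the Rps27l transcript (0%) occurred in another annotated gene, whereas 98.4% of those of Rps27 occurred in 2 other genes. How reads shared between genes were counted is not given in the sources used here, so the Rps27 level is uncertain.

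**Figure D2:**
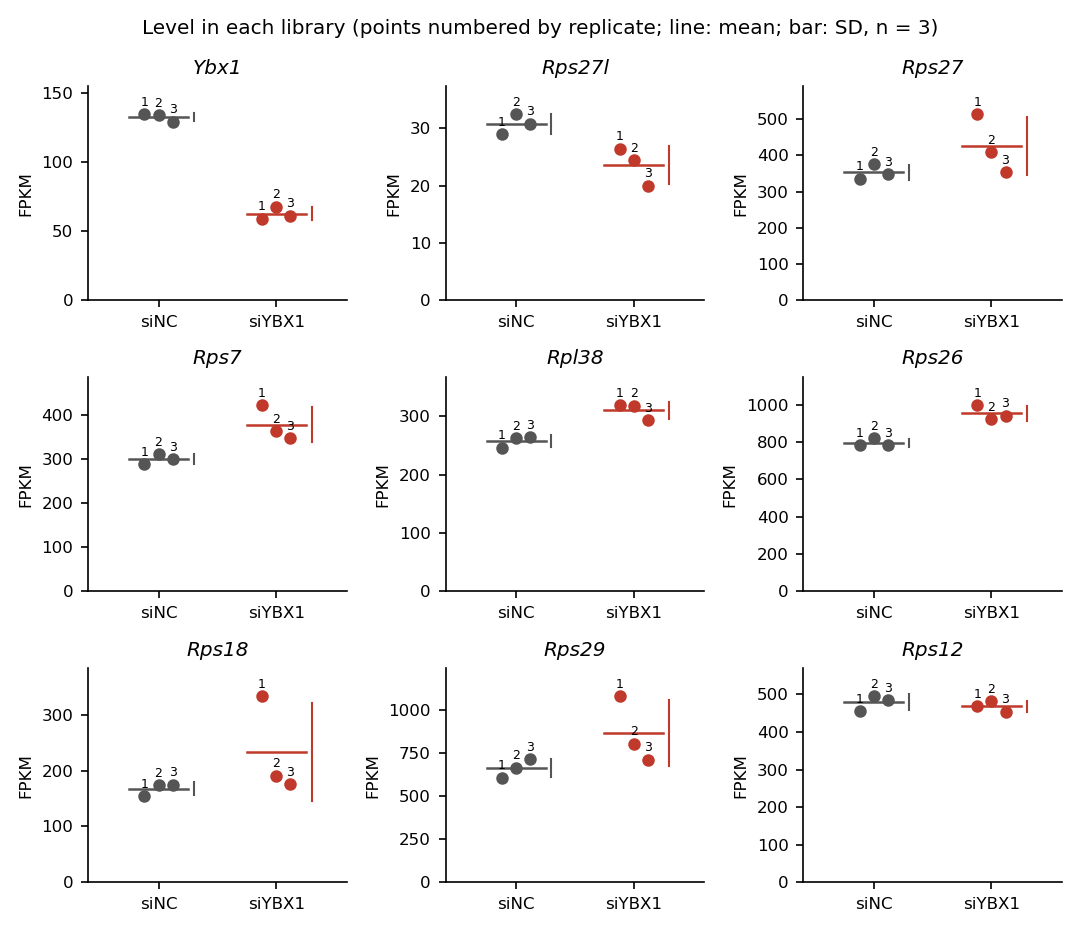
FPKM of Ybx1 and 8 ribosomal protein genes in each library, with points numbered by replicate, a line at the group mean and a bar of 1 SD (n = 3), each y axis starting at 0. Rps27l and Ybx1 are lower in every siYBX1 library, Rps7, Rpl38 and Rps26 are higher in every one, and Rps18 and Rps29 are set apart mainly by siYBX1 replicate 1.

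In the other paralog pairs the ratio differed less. Relative to Rpl22, its paralog Rpl22l1 was at 63.4% ± 3.65 in siNC and 57.1% ± 4.56 in siYBX1 (SD, n = 3, exact permutation p = 0.1). Rpl7l1 was at 6.39% ± 0.417 and 7.39% ± 0.645 of Rpl7 (exact permutation p = 0.1). Rpl36al was at 45.8% ± 2.48 and 47.2% ± 4.98 of Rpl36a (exact permutation p = 0.7), and Rpl6l at 9.65% ± 0.443 and 10.2% ± 0.662 of Rpl6 (exact permutation p = 0.3). The ratios of Rpl22l1 and Rpl7l1 lay in opposite directions with no overlap between groups, barely so for Rpl22l1, while those of Rpl36al and Rpl6l overlapped. Rpl39l and Rpl3l, paralogs known from testis and muscle, were not tested, with mean levels of at most 0.0114 FPKM in either group. Rpl32l, also not tested, had 0.29, 0.44 and 0.57 FPKM in siNC and 1.53, 0.19 and 0.15 FPKM in siYBX1. Its siYBX1 libraries lay on both sides of the siNC range.

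Of the remaining small-subunit genes, Rps12 and Rps15 had log2 fold changes of -0.03 and -0.02 (adjusted p = 0.743 and 0.856). Rps12, whose protein lies in the head, had 456, 496 and 486 FPKM in siNC and 469, 483 and 454 FPKM in siYBX1. Its groups overlapped almost fully, and the 95% interval of the log2 fold change was -0.17 to 0.10. Rps2, which encodes a protein near the mRNA entry channel, was at 0.01 (adjusted p = 0.959). Rps6, whose protein is the substrate of S6 kinase, was at 0.12 (0.182), and Rpsa, the laminin receptor precursor, at 0.15 (0.110). Rps27a encodes a fusion of ubiquitin with a ribosomal protein. It had 215, 141 and 141 FPKM in siNC and 263, 167 and 220 FPKM in siYBX1, with siNC replicate 1 inside the siYBX1 range (log2 fold change 0.39, adjusted p = 0.133).

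Of the 13 head proteins 2 were called higher, with a median log2 fold change of 0.19. Of 18 genes mutated in Diamond-Blackfan anaemia, an inherited failure of red cell production, 4 were called higher (Rps7, Rps24, Rps26 and Rpl11), with a median of 0.20. Both shares, 15.4% and 22.2%, can be set beside 17.9% of all tested members.

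In the large subunit, Rpl38 had the lowest adjusted p. RPL38 is known in mice for a skeletal patterning defect on its loss. Rpl38 had 246, 262 and 265 FPKM in siNC and 320, 318 and 294 FPKM in siYBX1. The groups did not overlap, and siNC replicate 1 was the lowest library. The log2 fold change was 0.27 (SE 0.06, limma adjusted p = 0.0111), called under 14 of 16 alternatives. Rpl29, whose protein also binds heparin, had the largest estimate at 0.37 (adjusted p = 0.0394). Its libraries were at 20.4, 23.9 and 21.8 FPKM in siNC and 35.9, 25.9 and 25.6 FPKM in siYBX1. The siYBX1 libraries were all higher, but replicate 1 stood far above the other pair, and without it the log2 fold change was 0.22 (adjusted p = 0.0817).

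Rpl13a, whose protein also acts outside the ribosome as a translation repressor, had 480, 472 and 475 FPKM in siNC and 574, 562 and 534 FPKM in siYBX1. The groups were apart, with the siNC libraries close together, and the log2 fold change was 0.22 (adjusted p = 0.0211). Rpl34 had 77.7, 79.2 and 83.2 FPKM in siNC and 92.9, 97.2 and 89.5 FPKM in siYBX1, again without overlap (0.22, adjusted p = 0.0178). Rpl11 and Rpl5 form the 5S ribonucleoprotein with the 5S rRNA, a complex that can bind MDM2. Rpl11 was called higher (log2 fold change 0.21, adjusted p = 0.0320), and Rpl5 was at 0.11 (0.219). Rpl23, a further MDM2-binding protein, rose by a log2 fold change of 0.24 (adjusted p = 0.0376), and Rpl6l by 0.19 (0.0398). Of the 16 alternatives, Rpl34 was called under 11, Rpl13a under 9, Rpl11 under 8, Rpl22, Rpl23 and Rpl29 under 7 each and Rpl6l under 4.

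The P-stalk recruits elongation factors to the large subunit. Its genes Rplp0, Rplp1 and Rplp2 had log2 fold changes of 0.04, 0.21 and 0.22 (limma adjusted p = 0.726, 0.181 and 0.0656). None passed the threshold, 1 had an unadjusted p below 0.05, and 1 was called by voom on recovered reads. Around the exit tunnel, 1 of 7 genes was called, Rpl22 (log2 fold change 0.18, adjusted p = 0.0359), and the median of the 7 was 0.17. Rpl3 and Rpl14 were at 0.00, Rpl14 with 292, 317 and 320 FPKM in siNC and 306, 327 and 298 FPKM in siYBX1. Both groups of Rpl14 covered nearly the same range.

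The genes of 7 ribosomal proteins or paralogs named outside the symbol rule had a median log2 fold change of 0.18, all above 0. None of the 7 was called, while 4 had an unadjusted p below 0.05 and 4 were called by voom on recovered reads. Rps3a1 was at 0.20 (limma adjusted p = 0.0807), and Fau, which encodes a ubiquitin-like fusion of a small-subunit protein, at 0.18 (0.0574). Rack1, a signalling scaffold on the small-subunit head, was at 0.04 (0.701), and at -0.01 with TPM scaling. Rpl7l1, Rpl36al and Rpl22l1 were at 0.25, 0.19 and 0.03 (0.0573, 0.0606 and 0.817). Of 10 rows for ribosomal protein pseudogenes 2 were tested. Rpl34-ps1 was called higher, with 66.6, 68.7 and 74.9 FPKM in siNC and 84.6, 84.3 and 76.8 FPKM in siYBX1, close in level and in change to Rpl34 itself.

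Ribosomal protein genes differed from library to library in a shared way. Against the siNC mean, the median log2(FPKM + 1) of the small subunit was -0.06, 0.05 and 0.02 in siNC replicates 1 to 3 and 0.25, 0.20 and 0.09 in siYBX1 replicates 1 to 3. For the large subunit the values were -0.07, 0.05 and 0.02 in siNC and 0.20, 0.18 and 0.09 in siYBX1. The subunits kept the same order of libraries, with siNC replicate 1 lowest and siYBX1 replicate 1 highest. Replicate 1 of siNC was the lowest of the 6 libraries for 65 of 78 members (83.3%), against 24.5% of all tested genes. This share was 88.5% for nuclear genes of the respiratory chain and 57.7% for mitochondrial ribosomal protein genes. It was 52.0% for the most abundant 10% of tested genes, members left out. Replicate 1 of siYBX1 was the highest for 43 members (55.1%), against 14.2% of all tested genes, replicate 2 for 29 and replicate 3 for 1. In those other classes siYBX1 replicate 1 was the highest for 79.5%, 48.7% and 41.5% of genes, in the same order. The number of members above their own 6-library mean was 3, 23 and 16 in siNC and 65, 71 and 41 in siYBX1, so siYBX1 replicate 3 was the nearest of its group to the controls. Without both replicates numbered 1 the medians were 0.10 for the small and 0.10 for the large subunit.

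**Figure D3:**
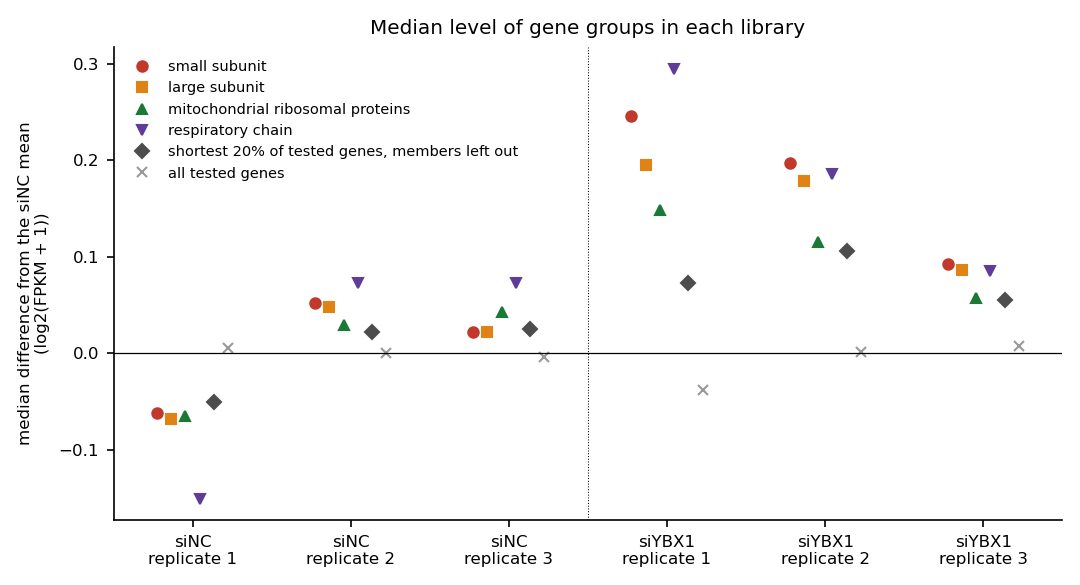
Median difference from the siNC mean (log2(FPKM + 1)) in each library for small-subunit, large-subunit, mitochondrial ribosomal protein, respiratory chain, short and all tested genes. Ribosomal protein genes are lowest in siNC replicate 1 (-0.06 and -0.07) and highest in siYBX1 replicate 1 (0.25 and 0.20), and the respiratory chain genes have the same extremes.

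A few members were raised in siYBX1 replicate 1 far more than the rest. They were named after their values were seen. Rps18 had 154, 174 and 175 FPKM in siNC and 333, 191 and 175 FPKM in siYBX1. Replicate 1 was 1.82 times the mean of the other siYBX1 libraries, which lay just above the controls. Rps18 had the highest estimate of the small subunit without passing (log2 fold change 0.42, limma adjusted p = 0.133). Rps28 had 606, 756 and 745 FPKM in siNC and 1167, 827 and 789 FPKM in siYBX1 (0.39, adjusted p = 0.0720). Rps29 had 609, 667 and 717 FPKM in siNC and 1083, 806 and 713 FPKM in siYBX1 (0.36, adjusted p = 0.0713). In both genes siYBX1 replicate 1 stood alone, and for Rps29 replicate 3 fell inside the siNC range. The ratio of replicate 1 to the mean of replicates 2 and 3 was 1.57 for Rpl26, 1.49 for Rpl21, 1.44 for Rps28, 1.43 for Rps29, 1.39 for Rpl29, 1.36 for Rps27a and 1.35 for Rps27. On the log2(FPKM + 1) scale the median excess of siYBX1 replicate 1 was 0.10 in the small and 0.06 in the large subunit, and -0.03 for all tested genes.

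Summed over its genes, the small subunit had 13864, 15073 and 14838 FPKM in siNC replicates 1 to 3 and 17363, 16495 and 15431 FPKM in siYBX1 replicates 1 to 3. The large subunit had 25155, 27472 and 27089 FPKM in siNC and 29965, 29720 and 27909 FPKM in siYBX1. Both sums were higher in every siYBX1 library than in any siNC library, 1.13-fold for the small and 1.10-fold for the large subunit as ratios of means. With libraries rescaled to TPM these ratios were 1.09 and 1.06. Together the members took 9.86%, 10.4% and 10.2% of all FPKM in siNC and 11.1%, 10.9% and 10.5% in siYBX1. The small-to-large ratio of the sums was 0.551, 0.549 and 0.548 in siNC and 0.579, 0.555 and 0.553 in siYBX1. It was nearly constant in 5 libraries and higher in siYBX1 replicate 1. The group means of the ratio, 0.549 ± 0.00175 and 0.562 ± 0.0147 (SD, n = 3), thus differed by 1.02-fold, and by 1.01-fold without that library.

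The members are short and abundant, so other genes of these kinds were counted in the same way. The length behind the FPKM values had a median of 703 bases for the small subunit, 934 for the large subunit and 3437 for all tested genes, and 67 of 78 members (85.9%) were among the shortest 20% of tested genes (at most 1846 bases). Among the other 2003 genes of that class, 19.0% were called higher and 6.44% lower, with a median log2 fold change of 0.07. Among the most abundant 10% of tested genes (members left out, 962 genes), 24.0% were called higher and 7.28% lower, with a median of 0.09. The 17.9% of members called higher is near both shares, while the members' medians of 0.17 and 0.16 are above these. Of 78 tested mitochondrial ribosomal protein genes, 16 were called higher and 2 lower (median 0.11). Of 78 tested nuclear genes of the respiratory chain, 18 were called higher and none lower (median 0.21). For these the counts were 28 and 0 with voom on recovered reads, 15 and 1 with TPM, 11 and 2 with a length correction and with quantile normalization, 2 and 0 with no filter, and 5 and 0 without siYBX1 replicate 1. They were 11 and 2 without siNC replicate 1, 11 and 0 without siNC replicate 3, and 8 and 0 without siYBX1 replicate 2. For 34 respiratory chain and 32 mitochondrial ribosomal protein genes, of 78 each, all siYBX1 libraries lay above all siNC libraries. For the members it was 45 of 78. The share was 40.3% for the most abundant 10% and 29.1% for the shortest 20%, members left out of both. Differences between these medians and between these shares were not tested. Across the 78 members, Spearman's rho of log2 fold change with length was -0.24, and across all 10341 tested genes it was -0.27. Genes are not independent replicates, and they share the same 6 libraries. After subtracting a length trend from each library, 6 members were called higher and Rps27l lower, and the medians were 0.10 for the small and 0.08 for the large subunit.

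**Figure D4:**
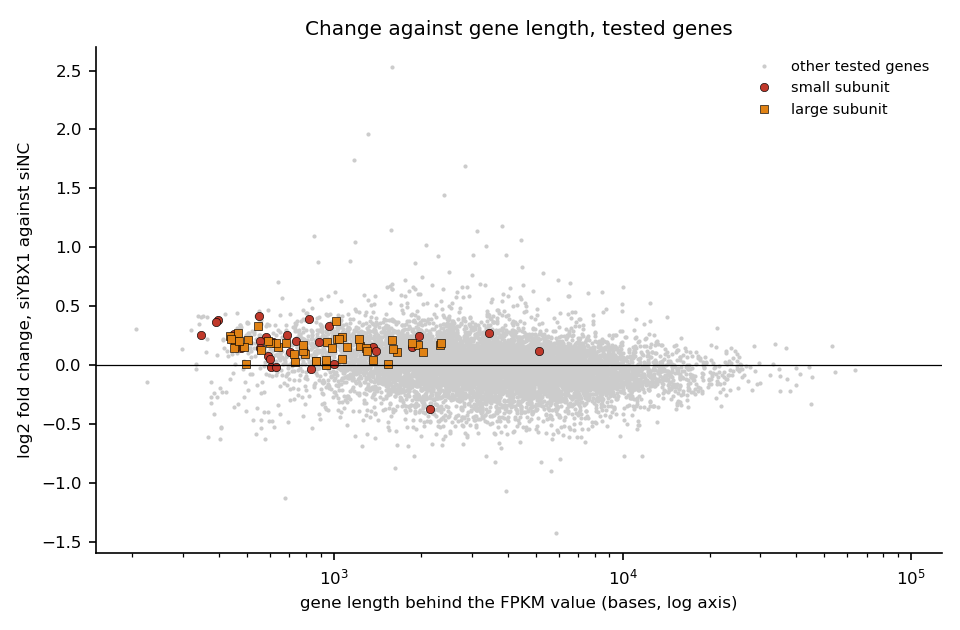
Log2 fold change (siYBX1 against siNC) against the gene length behind the FPKM value (bases, log axis), with small-subunit genes as circles, large-subunit genes as squares and the other tested genes as grey points. Nearly all members lie at the short end and a little above 0, and Rps27l, at 2150 bases, lies at -0.37.

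A list of other mRNAs known as TOP mRNAs held 17 tested genes. Of these, 4 (23.5%) were called higher and 1 (5.88%) lower, with a median log2 fold change of 0.11. Among all tested genes 9.54% were called higher and 11.1% lower. The share called higher is near the 24.0% of the most abundant 10% of tested genes, members left out. Eif3e, a subunit of the initiation factor eIF3, had 234, 258 and 251 FPKM in siNC and 312, 307 and 298 FPKM in siYBX1. Btf3, which acts with Naca on new chains at the tunnel exit, had 305, 326 and 316 FPKM in siNC and 362, 380 and 367 FPKM in siYBX1. Neither gene's groups overlapped, and their log2 fold changes were 0.30 and 0.23 (limma adjusted p = 0.00540 and 0.0169). Eef2, the translocation factor, had 1077, 989 and 1043 FPKM in siNC and 787, 808 and 822 FPKM in siYBX1. It was lower in every siYBX1 library, with a log2 fold change of -0.36 (adjusted p = 0.00402). Eef1a1, the most abundant of them, was at 0.00 on the same scale (adjusted p = 0.981). Under quantile normalization 1 gene was called higher and 2 lower, and the median was 0.00.

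Among 8 regulators of TOP mRNA translation, Eif4ebp1, an mTOR-controlled repressor of cap-dependent initiation, was called higher. It had 159, 130 and 137 FPKM in siNC and 176, 170 and 173 FPKM in siYBX1, above every control (log2 fold change 0.29, limma adjusted p = 0.0189). It passed under 8 of 16 alternatives, with adjusted p up to 0.187 under quantile normalization. The median of these 8 genes was -0.02. Of 10 chaperones and escorts of ribosomal proteins none was called, and voom on recovered reads called none. At an unadjusted p below 0.05 there were 2 higher and 1 lower, the latter being Heatr3 (log2 fold change -0.16, adjusted p = 0.0666), named after its value was seen. TPM scaling called 1 lower, and leaving out siNC replicate 2 called 1 higher. Their median was 0.05. Aamp and Bccip, the most abundant of them under the naming rule, were at 0.08 and 0.18 (adjusted p = 0.267 and 0.139).

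Levels of the tested members ran from 5.17 FPKM (Rpl21) to 3136 FPKM (Rpl41), with a median of 494 FPKM and quartiles of 297 and 718 FPKM. The most abundant were Rpl41, which encodes the smallest ribosomal protein, Rplp1 (1337 FPKM) and Rpl23a (1311 FPKM) in the large subunit. In the small subunit they were Rps15 (1146 FPKM), Rps23 (1010 FPKM) and Rps26 (875 FPKM). The lowest small-subunit genes were Rps27l (27.2 FPKM), Rps15a (58.0 FPKM) and Rps2 (112 FPKM). The lowest large-subunit rows were the untested Rpl39l, Rpl3l and Rpl32l.

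FPKM divides by the length the authors used, which for some members is far longer than the coding sequence. For Rps15a this length was 5136 bases against a coding sequence of 390, and its place among the members rose from 74 to 49 when reads were divided by coding length. Rps20 (3446 bases) moved from 69 to 22, Rps24 (1961 bases) from 44 to 2, and Rpl19 (2326 bases) from 56 to 18. Rps2 stayed low, at 70 and 74. On this scale the upper quartile was 1.93 times the lower quartile over 77 members, against 2.42 times in FPKM over 78. The full range was wider, from 20.01 to 18774 reads per kb of coding sequence (scaled to library size), against 5.17 to 3136 FPKM. The top value was that of Rpl41 alone, whose coding sequence has 75 bases, and the next was 2242 for Rps24. Rpl21 stayed lowest of the tested members on both scales, at 326 reads per library on average. It shared 100-base stretches with 40 other annotated genes, but only 16.7% of its stretches were shared. The median member had 31.8% of its 100-base stretches in another gene. Across 77 members this share had a Spearman's rho of -0.01 with mean FPKM and -0.18 with reads per kb of coding sequence. With the log2 fold change it was -0.04. These are descriptions over genes in the same libraries.

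**Figure D5:**
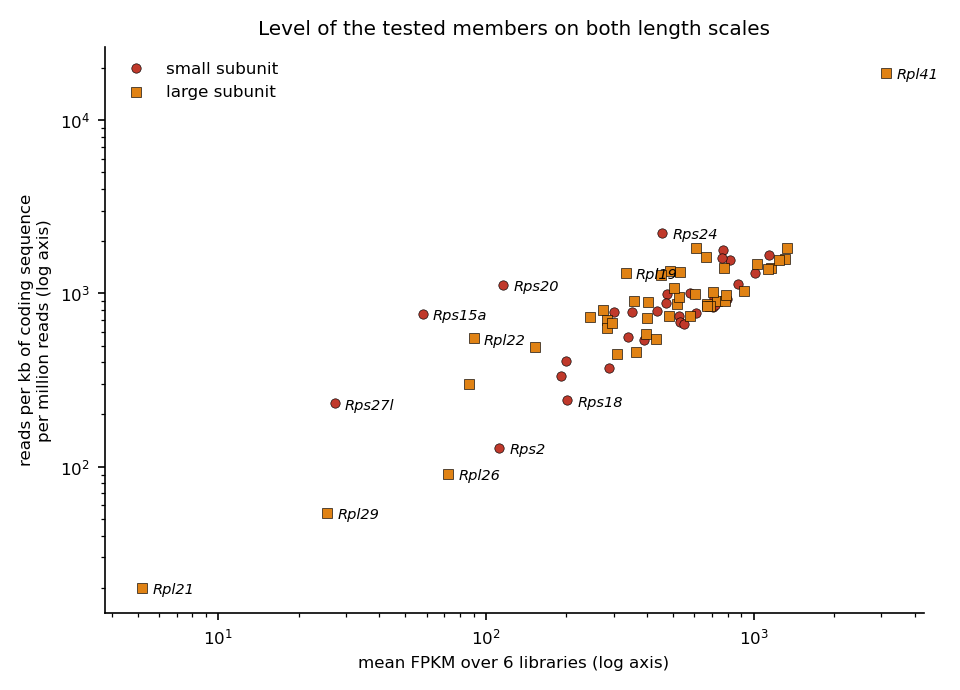
Mean level of tested members over 6 libraries as FPKM (x, log axis) and as reads per kb of coding sequence, scaled to library size (y, log axis), circles for the small and squares for the large subunit. Rps15a, Rps20 and Rps24, whose genes are long beside their coding sequence, lie above the main diagonal, and Rpl21 and Rpl29 lie lowest.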

How the data were processed

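The authors deposited 1 table of FPKM values for 16423 gene symbols and 6 libraries. Per the submitters' processing notes, fastp, HISAT2, HTSeq and GRCm39 were used, with versions and roles not given in the sources used here. Strandedness and the counting of shared reads are not given there either. RNA input was 1.3 µg per library, per the labels' protocols.

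Whole reads were recovered from the FPKM steps. Each library total and the smallest length giving whole reads (tolerance 0.02 reads) were sought, and 100% of 16423 genes came out whole. For the lengths and reads given here, the recovered length was multiplied by 2 or 3 for Rpl13a, Rpl32 and Rpl3l, where it was shorter than the coding sequence. The voom and length-correction fits were run without this step. They used 513 bases for Rpl13a in place of 1026 and 168 bases for Rpl32 in place of 504, with reads lower to match. The two-sided test, limma 3.58.1 in R 4.3.3, used log2(FPKM + 1) and its intensity trend option. It covered the 10341 genes averaging 1 FPKM or more, with Benjamini-Hochberg adjustment over all of them. Such fold changes understate changes of low genes. The script was tested on simulated data. Voom on recovered reads was an alternative, with 28 members and 13 of the 14 main calls among those called higher.

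Coding lengths and shared 100-base stretches came from GENCODE vM21 (GRCm38), and promoters from RefSeq (GRCm38.p6). Named genes were Ybx1, per subunit the 8 largest called rises, every called fall, the 3 most and 3 least abundant and the 2 lowest log2 fold changes, all members of short role lists, Rps6, Rpsa and Rps27a, and 2 genes each way from other lists. Genes named outside this rule (Rps18, Rps28, Rps29, Rpl19, Rpl21, Rpl26 and Eef1a1) were chosen after their values were seen. Some genes, counted in totals, are not reported here by name. The members and lists were chosen with earlier results of these data known. Python 3.11.15 with numpy 2.4.6, pandas 2.3.3, scipy 1.17.1 and matplotlib 3.10.9 was used.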

Additional observations from a re-analysis of the deposited data

How the results depend on the processing

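No called result changed direction under the 16 alternative fits. The main counts were 14 members called higher (6 small, 8 large), medians of 0.17 and 0.16, and 987 genes higher and 1145 lower overall. With a length correction 6 members were called higher (3 small, 3 large), and the large-subunit median was 0.082. With no filter on low values 2 were called (0 small, 2 large), with 577 genes higher and 664 lower overall. Without an intensity trend 5 large-subunit genes were called. Quantile normalization gave 8 (4 large), medians of 0.094 and 0.073, and also called Rps15 lower. Voom on recovered reads gave 28 (11 small, 17 large). TPM scaling gave 10, but moved the overall split to 662 higher and 1573 lower and the median of all genes to -0.06. With both replicates numbered 1 left out, chosen after seeing the data, 6 were called (3 small, 3 large), with medians of 0.10 and 0.10.

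Leaving out each library in turn gave 2 to 20 members called higher, 1 to 10 small, 1 to 10 large, medians of 0.12 to 0.20 (small) and 0.12 to 0.19 (large), and 547 to 970 genes higher and 604 to 1056 lower overall. The small-subunit count was 3 without siNC replicate 2 and 10 without siYBX1 replicate 3. With 2 libraries left in a group, limma assumes that they vary like the others. Rps27l was called lower in each of these fits. Over the single named genes, 675 of 880 alternative values kept their direction and call.

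With the replicate block, 3 members were called higher (2 small, 1 large), and 607 genes higher and 739 lower overall. Same-numbered libraries had correlations of -0.31, -0.13 and -0.25 between their deviations from the group means. The labels do not state a pairing, and with 3 libraries per group these values cannot decide whether there was one. Of the tested members Rpl21 had the fewest reads, at 326 per library. Rpl39l, Rpl3l and Rpl32l were too low to be tested.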
